A study of Sus scrofa with 23 samples.

Results

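The organic anion and organic cation transporters of the kidney cortex were examined in RNA of 23 newborn pigs. Of 9 listed genes, 8 matched a gene symbol of the pig annotation and were measured, among 26687 genes in all: SLC22A6, SLC22A7, SLC22A8, SLC22A12, SLC22A2, SLC22A4, SLC22A5 and SLCO4C1. The ninth, SLC47A1, matched no transcript by its symbol and was not analysed here under that name. Each pig gave 1 library of total RNA depleted of ribosomal RNA. The labels give 11 libraries of CFTR-/- pigs (CF), which lack functional alleles of the cystic fibrosis chloride channel, 6 of CFTR+/- pigs (HET) and 6 of wild-type pigs (WT), all newborn. The 12 libraries labelled HET or WT together form the non-CF group that the study's methods compare with CF. Sex and litter are not in the labels.

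Proximal tubule cells clear many drugs, toxins and metabolic waste products from the blood. Organic anions enter the cell from the blood side through OAT1 and OAT3, which exchange them for dicarboxylates, and organic cations enter through OCT2. Pumps and exchangers at the luminal membrane, such as the MATE and ABC transporters, then pass these compounds into the urine. Other members of the same families work in reabsorption: URAT1 takes up urate and OCTN2 takes up carnitine from the filtrate.

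The members were read from gene models of Sscrofa11.1, the build used by the authors. SLC22A12 (chr2:7557822-7565801, minus strand), SLC22A8 (chr2:8782030-8800998, plus strand) and SLC22A6 (chr2:8809547-8817124, plus strand) lie on chromosome 2, the last pair close together. A gene model annotated as SLC22A6-like, LOC100622132, follows SLC22A6 at chr2:8822835-8845847 on the plus strand. SLC22A4 (chr2:134594843-134641403, plus strand) and SLC22A5 (chr2:134660741-134847575, plus strand) also lie close together, and SLCO4C1 lies at chr2:107815058-107887399 on the minus strand. SLC22A7 lies at chr7:38328474-38334879 and SLC22A2 at chr1:7289278-7323418, both on the plus strand. A pair of further gene models, LOC100525483 (chr12:59919553-59935895, plus strand) and LOC102157639 (chr12:59977028-60020170, minus strand), are annotated as multidrug and toxin extrusion protein 2. These 3 LOC models are not members. They were added after their values had been seen, and are given only beside the members.

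The 300 bases upstream of the transcript start are shown for SLC22A8, the member with the highest level, and for SLC22A12, the only member whose upstream window held one of the letter motifs searched. They were read from the RefSeq genome Sscrofa11.1 at chr2:8781736-8782035 on the plus strand and at chr2:7565801-7566100 on the minus strand, 5′ to 3′, and capitals mark the motif match.
SLC22A8: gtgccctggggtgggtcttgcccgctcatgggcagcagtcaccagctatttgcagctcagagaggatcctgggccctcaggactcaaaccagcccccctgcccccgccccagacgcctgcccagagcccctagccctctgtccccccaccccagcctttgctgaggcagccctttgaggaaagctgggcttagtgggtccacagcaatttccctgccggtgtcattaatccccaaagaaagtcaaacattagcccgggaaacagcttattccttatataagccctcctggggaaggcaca
SLC22A12: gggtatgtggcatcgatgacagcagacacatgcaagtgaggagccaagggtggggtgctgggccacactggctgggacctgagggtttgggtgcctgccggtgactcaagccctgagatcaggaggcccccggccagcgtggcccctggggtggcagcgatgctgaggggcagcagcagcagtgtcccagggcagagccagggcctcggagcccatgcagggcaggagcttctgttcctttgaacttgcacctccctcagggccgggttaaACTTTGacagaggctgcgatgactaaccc
The motifs searched were GTTAAT (a half-site of the hepatocyte nuclear factor HNF1), CAAAGT (the core of sites of the hepatocyte nuclear factor HNF4) and TATAAA (the TATA box). Each was read on both strands. The match in SLC22A12 was CAAAGT on the opposite strand, starting at base -29 from the transcript start. Among 20624 windows of the same length, one per gene, 7.45% held GTTAAT, 11.9% held CAAAGT and 12.5% held TATAAA. The window of SLC22A6 starts at a record that holds only coding bases, so it need not be the promoter.

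The libraries held 32901281 to 52952273 estimated counts. At that depth a count of 0 allows up to 3 counts, or between 0.0567 and 0.0912 CPM (counts scaled to the size of the library), and no member came near this limit. This limit covers counting error only. The targeted gene went against a simple reading of the labels: CFTR had 60 to 178 estimated counts in WT, 442 to 699 in HET and 614 to 1040 in CF libraries, so the groups are called by their labels throughout. All 12 proximal tubule markers were detected, including the endocytic receptor LRP2 and the phosphate carrier SLC34A1, and their summed level ran from 1973 to 3417 TPM in WT, 2294 to 4084 TPM in HET and 2192 to 3606 TPM in CF libraries. None of the 12 was at 0 in every library of a label. A scaling of the libraries split them on its first axis into 10 (5 CF, 1 HET, 4 WT) with 0 to 5 estimated counts of the Y-linked EIF1AY and 13 (6 CF, 5 HET, 2 WT) with 615 to 1215. With EIF1AY as a covariate, a setting added after the data were seen for the pairs of labels, no member changed direction or had an adjusted p under 0.05 in edgeR, although the log2 fold change of SLC22A12 moved from -0.24 to -0.11 in HET against WT and from -0.093 to -0.00060 in CF against WT. The second axis separated pigs 1 to 6 and 12 to 18 (set I, 13 libraries: 6 CF, 3 HET, 4 WT) from pigs 7 to 11 and 19 to 23 (set II, 10 libraries: 5 CF, 3 HET, 2 WT). The labels name no batch, and both sets hold every label. Values within each set are given for some of the results.

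Levels are given as TPM (abundance corrected for transcript length and depth), which can be compared between genes. SLC22A8 (OAT3), the broad uptake carrier for organic anions, had the highest level of the members, with a lowest, median and highest value of 93.3, 153 and 269 TPM, above 98.5% of the genes with any count. SLC22A2 (OCT2), the cation carrier of the blood side, followed with 42.1, 95.8 and 142 TPM. SLC22A12 (URAT1) had 25.5, 41.6 and 73.1 TPM. SLC22A5 (OCTN2), the high-affinity carnitine carrier, had 24.1, 31.7 and 50.0 TPM. The 4 leading members thus span the anion, cation, urate and carnitine functions.

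SLC22A6 (OAT1), the classical para-aminohippurate carrier, had 4.10, 13.8 and 58.0 TPM. SLCO4C1 (OATP4C1), a blood-side carrier of digoxin and thyroid hormone, had 6.18, 9.38 and 15.02 TPM. SLC22A4 (OCTN1), which carries ergothioneine, had 1.21, 2.96 and 4.90 TPM, and SLC22A7 (OAT2) had 0.506, 1.60 and 4.61 TPM. The order from SLC22A8 through SLC22A2 to SLC22A12 held in 23 of 23 libraries, and so did the place of SLCO4C1 above SLC22A4. SLC22A12 exceeded SLC22A5 in 19, SLC22A5 exceeded SLC22A6 in 19, SLC22A6 exceeded SLCO4C1 in 16 and SLC22A4 exceeded SLC22A7 in 18 of 23 libraries. In these last pairs the order thus differed between pigs. No test was made between members.

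**Figure D1:**
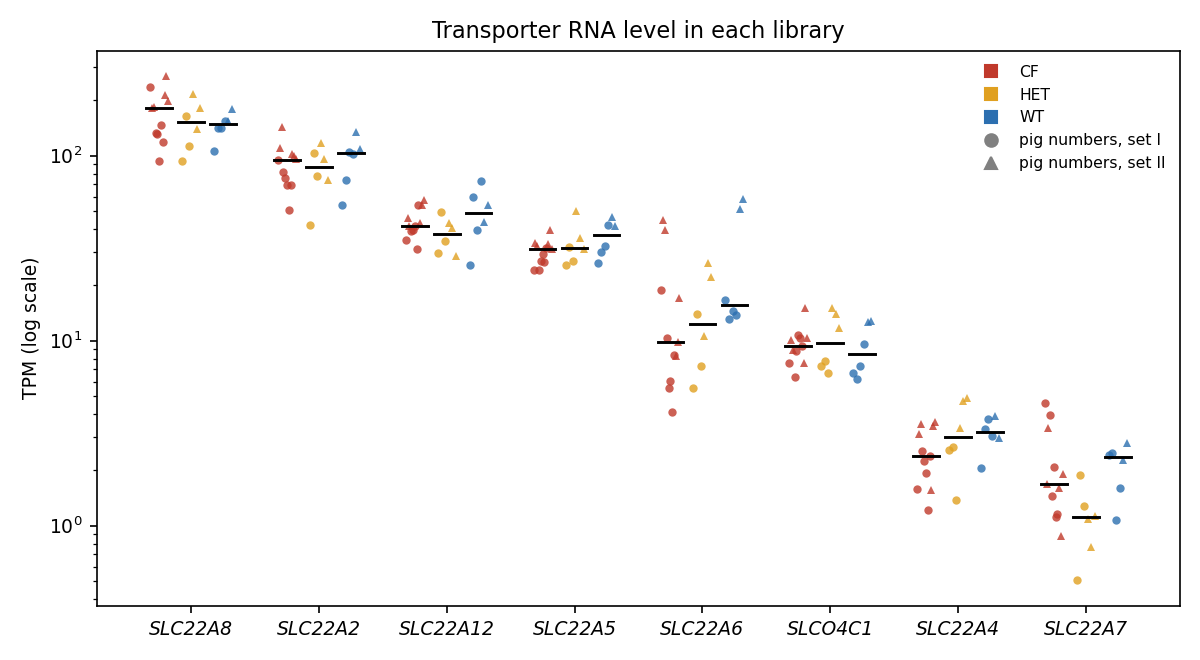
TPM of each member in each of the 23 libraries on a log axis, by label (colour) and by the set of pig numbers (circle or triangle), with black lines at the medians. SLC22A8 sits highest, SLC22A4 and SLC22A7 lowest, SLC22A6 spreads most within its labels, and the 3 labels overlap for every member.

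The members differed in how much they varied between pigs. The coefficient of variation of CPM over the 23 libraries was 77.4% for SLC22A6 and 59.5% for SLC22A7, higher than for 98.8% and 97.1% of the 20921 genes tested. It was 17.7% for SLC22A5, next to the 17.7% median of all genes, and between 23.2% and 35.7% for the other members. SLC22A6 had 260 to 3636, SLC22A7 47 to 418 and SLC22A4, at 35.7%, 116 to 530 estimated counts. Within sets I and II the coefficient was 49.2% and 59.2% for SLC22A6, and 65.7% and 45.9% for SLC22A7.

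SLC22A6 was measured at 4.10, 9.78 and 44.8 TPM (lowest, median and highest) in CF, 5.53, 12.3 and 26.3 TPM in HET and 13.1, 15.5 and 58.0 TPM in WT libraries. The labels overlapped. The highest values were in WT23 (58.0 TPM), WT22 (51.2 TPM), CF10 (44.8 TPM) and CF11 (39.8 TPM), all in set II, where the median was 24.2 TPM against 10.4 TPM in set I. In set I the 4 WT libraries lay between 13.1 and 16.5 TPM and the 6 CF libraries between 4.10 and 18.9 TPM. In set II both WT libraries lay above all 5 CF libraries, which ran from 8.23 to 44.8 TPM.

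LOC100622132, the SLC22A6-like model next to it, ran from 2.05 to 23.5 TPM. Its exons share only 6 of the 1611 words of 31 bases in the exons of SLC22A6, as read from the genome. The log2 CPM of both genes had a Pearson r of -0.37 and a Spearman rho of -0.39 over 23 libraries, given as a description. Within the sets r was -0.33 (n = 13) and -0.91 (n = 10). The deposited record of SLC22A6 holds only coding bases and differs from the genome by 6 substitutions and 1 frameshift, which the estimates depend on in a way that was not tested.

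**Figure D2:**
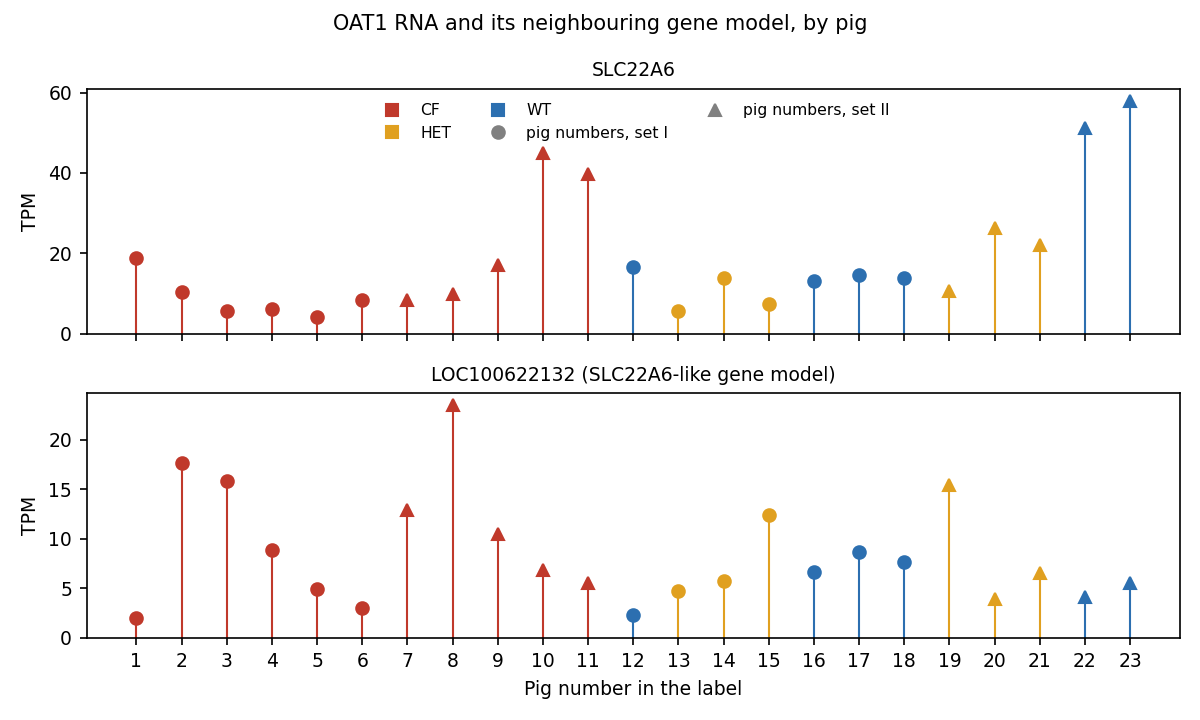
TPM of SLC22A6 (top) and of the neighbouring gene model LOC100622132 (bottom) against pig number, coloured by label, with circles for set I and triangles for set II. SLC22A6 is highest in WT23 at 58.0 TPM and LOC100622132 in CF8 at 23.5 TPM.

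The first comparison asked whether transporter RNA differed between CF and non-CF pigs. No member had an adjusted p under 0.05 by the quasi-likelihood F test of edgeR after Benjamini-Hochberg correction across 20921 genes, of which 0.349% were called. None had an unadjusted p under 0.05 either, beside 13.7% of all genes. DESeq2, limma-voom and an exact form of the Mann-Whitney U test, the test the study's methods name, also called none of the members after adjustment (DESeq2 called 2.46% of all genes), and the smallest unadjusted p of a member in the Mann-Whitney test was 0.15. The log2 fold changes ran from -0.39 to 0.46 with a median of 0.01, beside 0.00 for all genes, and 4 members were higher and 4 lower. In bulk cortex, fewer cells of a type and less RNA per cell cannot be told apart.

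Among the anion carriers, SLC22A6 had 22.4 ± 18.4 CPM in CF (SD, n = 11) and 29.4 ± 21.9 CPM in non-CF libraries (n = 12). Its log2 fold change was -0.39 with an SE of 0.40 and an adjusted p of 0.73 (edgeR). The 95% interval, from -1.22 to 0.44 on the log2 scale, leaves room for a difference of either sign. The value moved with single libraries, and was -0.17 without WT23, -0.22 without WT22, -0.60 without CF11 and -0.66 without CF10. SLC22A8 had 318 ± 97.5 CPM in CF and 271 ± 56.1 CPM in non-CF libraries, a log2 fold change of 0.23 (SE 0.15, edgeR adjusted p = 0.51), and 8 of 11 CF libraries lay above the non-CF median. SLC22A7 had 4.34 ± 2.74 CPM in CF and 3.16 ± 1.51 CPM in non-CF libraries (log2 fold change 0.46, SE 0.31, edgeR adjusted p = 0.55). Without CF1, the library with the highest SLC22A7, the log2 fold change was 0.25. In set I alone it was 0.62 and in set II alone 0.22.

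The urate exchanger SLC22A12 had 92.1 ± 17.9 CPM in CF and 90.8 ± 24.7 CPM in non-CF libraries, and its interval was the log2 range from -0.25 to 0.29. SLC22A2 was as close, with 262 ± 70.9 and 257 ± 65.9 CPM and an interval from -0.29 to 0.36. Within sets I and II the log2 fold change was -0.11 and 0.19 for SLC22A12, and -0.03 and 0.07 for SLC22A2. Of the carnitine and zwitterion carriers, SLC22A5 had 78.6 ± 11.0 CPM in CF and 88.4 ± 16.7 CPM in non-CF libraries, a log2 fold change of -0.17 (SE 0.10, edgeR adjusted p = 0.46). SLC22A4 had 5.24 ± 1.73 and 6.78 ± 2.31 CPM, a log2 fold change of -0.37 (SE 0.19, edgeR adjusted p = 0.39, the smallest of the members). For each of this pair 9 of 11 CF libraries lay at or below the non-CF median. SLCO4C1 had 41.9 ± 8.52 and 42.2 ± 13.2 CPM. In 6 of the 8 members the 95% interval lay within a 2-fold change in either direction, and SLC22A6 and SLC22A7 were the exceptions.

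**Figure D3:**
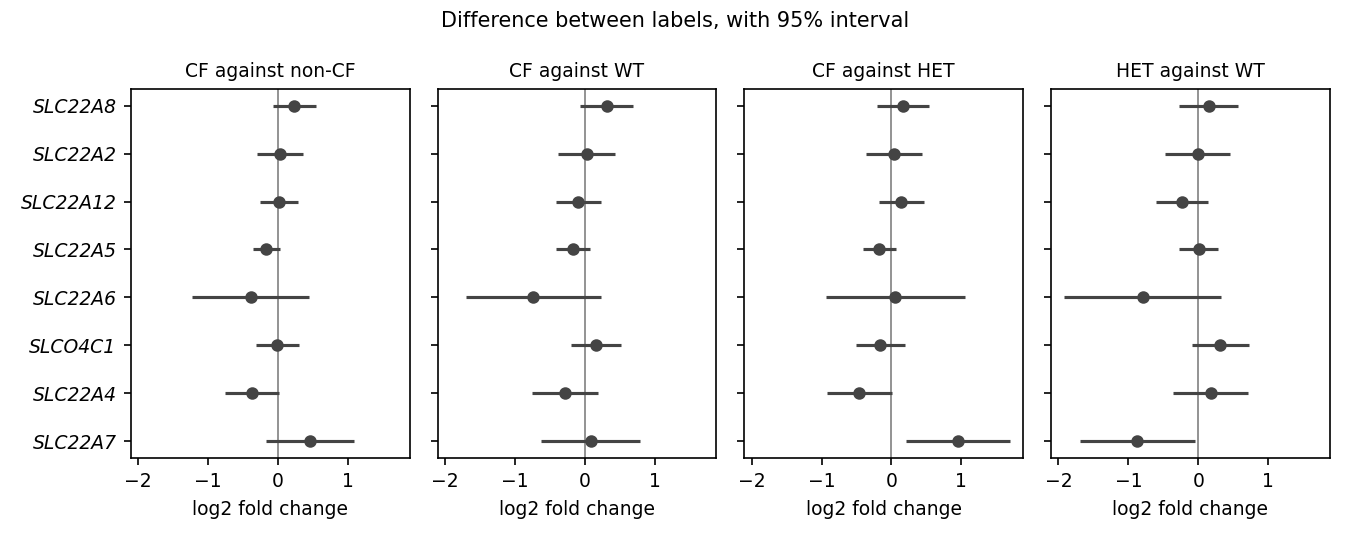
Log2 fold change of each member (point) with its 95% interval (line) from edgeR in the 4 comparisons, with the first-named label higher to the right of 0. In CF against non-CF every interval holds 0, and SLC22A7 is the member whose interval leaves 0, in CF against HET (0.21 to 1.70) and in HET against WT (-1.70 to -0.05).

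The 3 labels were then compared in pairs, in a fit in which they share one estimate of the spread and in which comparisons share libraries. Against WT, CF libraries had no member with an adjusted p under 0.05 in edgeR's test (0.349% of all genes called), and none with an unadjusted p under 0.05 (14.1% of all genes). SLC22A6 had 37.3 ± 27.2 CPM in WT, a log2 fold change of -0.74 in CF against WT (SE 0.47, edgeR adjusted p = 0.51, exact permutation p = 0.14). It was -0.55 in set I and -1.12 in set II. It was -0.40 without WT23 and -0.49 without WT22, the libraries with the highest SLC22A6. SLC22A8 had 256 ± 43.9 CPM in WT and a log2 fold change of 0.31 (SE 0.18, edgeR adjusted p = 0.46).

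Against HET, CF libraries had no called member, where 0% of all genes were called, and 1 member of 8 had an unadjusted p under 0.05, beside 9.89% of all genes. This member was SLC22A7, a carrier of organic anions and cyclic nucleotides, with 0.882, 1.69 and 4.61 TPM (lowest, median and highest) in CF, 0.506, 1.11 and 1.87 TPM in HET and 1.07, 2.34 and 2.79 TPM in WT libraries. The HET values were the lower ones, yet all labels overlapped. Its log2 fold change was 0.95 in CF against HET (SE 0.36, edgeR adjusted p = 0.39, exact permutation p = 0.053). In HET against WT, where 0.00478% of all genes were called, it was -0.87 (SE 0.40, edgeR adjusted p = 0.62, exact permutation p = 0.030), with 0 of 6 HET libraries above the WT median. It was the only member of 8 with an unadjusted p under 0.05 there, beside 7.99% of all genes. With EIF1AY as a covariate, SLC22A7 had -0.84 in HET against WT (unadjusted p = 0.062 in edgeR). In CF against HET it then had 0.95 (unadjusted p = 0.017 in edgeR). SLC22A7 rested on 47 to 418 estimated counts a library, and 9.19% of its 31-base words are also in exons of other genes, chiefly CRIP3.

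The other members differed less between HET and WT. SLCO4C1 had 46.8 ± 14.7 CPM in HET (n = 6) and 37.5 ± 10.7 CPM in WT libraries (n = 6), a log2 fold change of 0.32 (SE 0.20, edgeR adjusted p = 0.71). SLC22A6 had 21.5 ± 12.9 CPM in HET libraries, a log2 fold change against WT of -0.79 with an SE of 0.55, and from -1.05 to -0.44 with 1 library left out. For SLC22A5 the same comparison gave 0.01 with an interval from -0.27 to 0.28, and for SLC22A2 it gave -0.01 with an interval from -0.47 to 0.45.

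For SLCO4C1 the difference between CF and non-CF libraries took opposite signs in the sets of pig numbers. In set I it had 40.1 ± 8.24 CPM in CF (n = 6) and 32.0 ± 3.15 CPM in non-CF libraries (n = 7), a log2 fold change of 0.33 with an SE of 0.12. In set II it had 44.1 ± 9.26 CPM in CF (n = 5) and 56.4 ± 5.37 CPM in non-CF libraries (n = 5), a log2 fold change of -0.35 with an SE of 0.13. The difference between the sets was -0.68 (SE 0.18), with an unadjusted p of 0.00099 and an adjusted p of 0.17 in edgeR's interaction test, which called 0.0191% of all genes and gave 10.1% an unadjusted p under 0.05. It did not pass the threshold, and the other 7 members had adjusted p-values from 0.75 to 0.996. Non-CF libraries of set I and set II did not overlap, at 28.5 to 36.4 and 50.1 to 62.5 CPM, while the CF libraries of both sets did. The share of all genes with such a gap is not given here, and a scaling of these same data separates the sets. The gap is thus not shown to be particular to SLCO4C1. Of the words of 31 bases in SLCO4C1 exons, 11.5% are in other genes, chiefly LOC110255325.

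**Figure D4:**
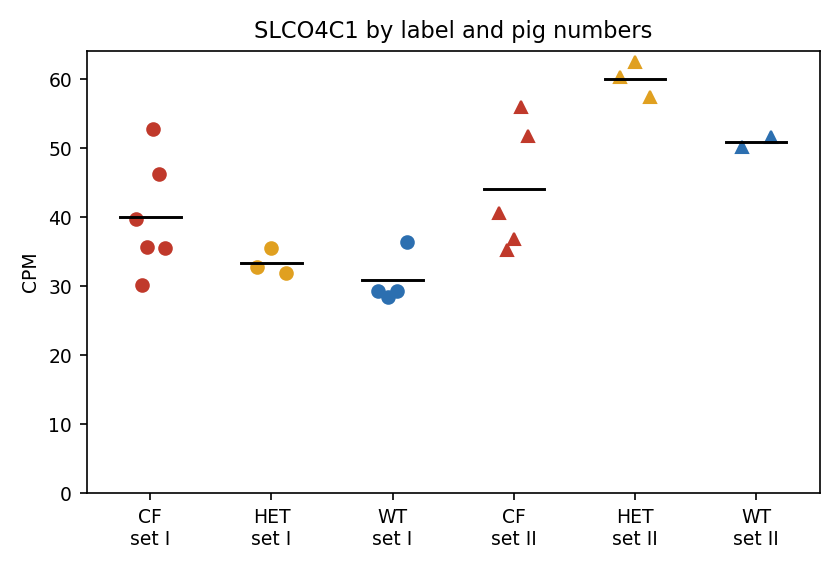
CPM of SLCO4C1 in each library by label within each set of pig numbers, with black lines at the means. In set I the CF mean of 40.1 CPM lies above the HET and WT means of 33.4 and 30.9, and in set II the CF mean of 44.1 CPM lies below the HET and WT means of 60.1 and 50.9.

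Most members had higher levels in set II. The mean was 224 ± 61.4 CPM in set I and 306 ± 39.8 CPM in set II for SLC22A2, 258 ± 79.0 and 339 ± 58.8 CPM for SLC22A8, 75.1 ± 9.19 and 94.8 ± 13.3 CPM for SLC22A5, and 15.6 ± 7.65 and 39.6 ± 23.5 CPM for SLC22A6. SLC22A12 was closer, at 89.4 ± 23.6 and 94.1 ± 18.6 CPM, and SLC22A7 had the higher mean in set I, at 4.03 ± 2.65 against 3.33 ± 1.53 CPM. These values are a description, since the sets were not formed by the study. The same difference over all genes is not given here, so it is not shown to be particular to the transporters.

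Members were compared with each other over the 23 libraries in 28 pairs. Of these, 25 had a positive and 3 a negative Pearson r of log2 CPM, with a median of 0.41, and 5 pairs had a permutation p under 0.05 after Benjamini-Hochberg adjustment over the 28 (100000 resamples, two-sided). Within set I 24 pairs were positive and 4 negative, with a median r of 0.32. Within set II 12 were positive and 16 negative, with a median r of -0.04. The r of pairs of genes in general is not given here. SLC22A8 and SLC22A2, the anion and cation carriers of the blood side, had r = 0.67 and rho = 0.67 (adjusted permutation p = 0.0067 for r and 0.0077 for rho), and r = 0.62 without the 2 libraries farthest from the median of SLC22A8. Within set I their r was 0.69 (n = 13) and within set II -0.25 (n = 10). SLC22A5 and SLCO4C1 had r = 0.67 and rho = 0.67 (adjusted permutation p = 0.0067 and 0.0077), and r = 0.60 without the 2 farthest libraries, but 0.24 and 0.54 within the sets.

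The remaining 3 pairs had a smaller r in set II than in set I. SLC22A2 and SLC22A5 had r = 0.65 and rho = 0.66 (adjusted permutation p = 0.0069 and 0.0077), r = 0.60 without the 2 farthest libraries, and 0.57 and 0.18 within sets I and II. SLC22A6 and SLC22A2 had r = 0.63 and rho = 0.64 (adjusted permutation p = 0.0078 and 0.0097), r = 0.61 without the 2 farthest libraries, and 0.63 and 0.18 within the sets. SLC22A6 and SLC22A4 had r = 0.56 and rho = 0.58 (adjusted permutation p = 0.036 and 0.030), r = 0.60 without the 2 farthest libraries, and 0.45 and 0.29 within the sets. Within set I only 1 of 28 pairs passed the same adjustment, SLC22A12 and SLC22A5 (r = 0.80, rho = 0.82, adjusted permutation p = 0.032 and 0.030, n = 13), and within set II none did. The sets hold 13 and 10 libraries. Of the 5 pairs that passed over all libraries, 4 had a positive r within both sets, and SLC22A8 and SLC22A2 were the exception.

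Over all genes tested, those most like each member in log2 CPM over the 23 libraries were named by rule, as a description. SLC22A8 was most like PDHA1, a subunit of pyruvate dehydrogenase, and ACADS, the short-chain acyl-CoA dehydrogenase, with r = 0.87 and 0.86. SLC22A2 was most like PRIM2 and SELRC1 (0.86 and 0.86), and SLC22A5 most like PRDM4 (0.89). SLC22A6 was most like ISOC1 and DNPH1 (0.84 and 0.80), SLC22A4 like FAM162A and SMIM4 (0.84 and 0.83), and SLCO4C1 like NUDCD2 and VMA21 (0.82 and 0.79). SLC22A7 was most like KHDRBS3 and APOA1 (0.77 and 0.75), and SLC22A12 like LOC100512926 and LOC110257103 (0.71 and 0.69). Within the sets r ranged from 0.48 to 0.89, which the choice of the highest r over the same libraries largely fixes. All points share the same libraries and depth.

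The transcript estimates behind SLC22A8 split the libraries. Of 7 records of this gene, NM_214455.1 differs from the genome by 1 substitution. It had 2381 to 6717 estimated counts, 30.4% to 40.7% of the gene's TPM, in CF1, CF7, CF8, CF11, HET19, HET21 and WT12. In the other 16 libraries it had 0 to 98. The gene total had a median of 212 TPM in these 7 libraries (105.7 to 269 TPM) and of 141 TPM in the other 16 (93.3 to 197 TPM), with overlapping ranges. This difference was not tested: the record's own counts are part of the total, and 5 of the 7 libraries but 5 of the other 16 belong to set II, where SLC22A8 was higher (a mean of 339 CPM against 258 in set I). For SLC22A2, the record XM_021082434.1 made up 34.8% to 38.8% of the gene's TPM in CF8, CF9, HET19 and HET21, all of set II, and 15.8% to 21.8% in the other 19. Its companion NM_213902.1 differs from the genome by 15 substitutions and 6 in-frame insertions or deletions. The first split held 4 CF, 2 HET and 1 WT libraries and the second 2 CF, 2 HET and 0 of 6 WT libraries, which was not tested against the labels. Whether alleles, isoforms or the estimation lie behind them was not tested.

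**Figure D5:**
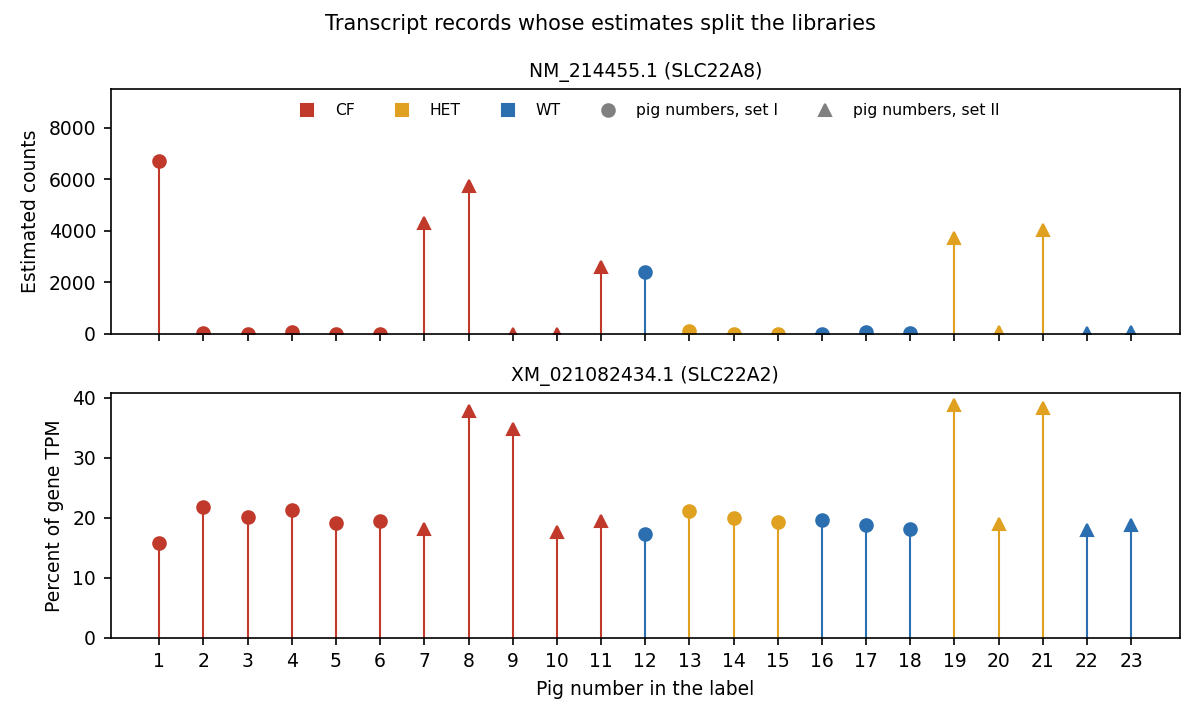
Estimated counts of the SLC22A8 record NM_214455.1 (top) and percent of SLC22A2 TPM carried by the record XM_021082434.1 (bottom) against pig number, coloured by label, with circles for set I and triangles for set II. The top record has 2381 or more counts in 7 libraries and at most 98 in 16, and the bottom record makes up 34.8% or more in 4 libraries.

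The MATE exporters, which hand organic cations to the urine, were represented by the pair of gene models on chromosome 12. LOC100525483 had 37.0 to 83.2 TPM with a median of 58.9, between SLC22A2 and SLC22A12, and LOC102157639 had 1.18 to 3.13 TPM. LOC100525483 had 127 ± 32.5 CPM in CF, 133 ± 23.6 CPM in HET and 96.7 ± 16.6 CPM in WT libraries. The log2 fold change was 0.40 in CF against WT (SE 0.16, edgeR adjusted p = 0.25) and 0.46 in HET against WT (SE 0.18, edgeR adjusted p = 0.58), with 9 of 11 CF and 5 of 6 HET libraries above the WT median. Neither passed the threshold. In LOC102157639, 26.8% of the 31-base words are also in other genes, so its estimates are uncertain.

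The same held for lists of related genes. Of 16 other SLC22 genes, 10 passed the filter on low counts, 4 higher and 6 lower in CF than in non-CF libraries, with a median log2 fold change of -0.04 beside 0.00 for all genes. The 3 with the smallest p were SLC22A3 (OCT3), SLC22A23 and SLC22A13, with log2 fold changes of 0.12, 0.21 and -0.09. Of 11 other MATE and OATP genes 8 passed, 5 higher and 3 lower, with a median of 0.03. Among them SLCO2A1, the prostaglandin carrier, had 28.9 ± 7.57 CPM in CF and 23.2 ± 4.61 CPM in non-CF libraries (log2 fold change 0.31, SE 0.13, edgeR adjusted p = 0.26), while SLCO4A1 and SLCO3A1 had -0.31 and -0.11. None of these genes had an adjusted p under 0.05.

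All 8 ABC export pumps passed the filter, 2 higher and 6 lower, with a median of -0.05. ABCC5, ABCB1 and ABCC3 had log2 fold changes of -0.15, -0.20 and -0.16 and edgeR adjusted p-values of 0.32, 0.42 and 0.59. ABCC2 (MRP2) and ABCC4 (MRP4), the luminal anion pumps, had medians of 32.1 and 24.3 TPM. Of 12 listed partners in dicarboxylate, urate and monocarboxylate transport, 11 passed, 6 higher and 5 lower, with a median of 0.02. SLC16A9, a carnitine and monocarboxylate carrier, had 226 ± 81.2 CPM in CF and 144 ± 47.7 CPM in non-CF libraries (log2 fold change 0.66, SE 0.20, adjusted p = 0.12 in edgeR and 0.032 in DESeq2), with 9 of 11 CF libraries above the non-CF median. SLC17A1 and SLC17A3, sodium phosphate family carriers that export urate, had -0.23 and -0.16. SLC13A3, the carrier that supplies the dicarboxylates for OAT exchange, had a median of 47.4 TPM.

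Of 10 transcriptional regulators of proximal transporters, 8 were higher and 2 lower, with a median of 0.10, and none was called. The pregnane X receptor NR1I2 had 19.3 ± 8.58 CPM in CF and 11.8 ± 5.51 CPM in non-CF libraries (log2 fold change 0.71, SE 0.24, edgeR adjusted p = 0.16), with 10 of 11 CF libraries above the non-CF median. HNF4G and CEBPB had 0.29 and 0.36. HNF4A, which is known to drive OAT genes, had a median of 125 TPM. Of 7 genes of carnitine synthesis and shuttling, 2 were higher and 5 lower, with a median of -0.10. SLC25A20, the mitochondrial carnitine-acylcarnitine carrier, had 40.7 ± 7.35 CPM in CF and 52.1 ± 13.4 CPM in non-CF libraries (log2 fold change -0.36, SE 0.12, edgeR adjusted p = 0.18), and 1 of 11 CF libraries lay above the non-CF median. TMLHE and BBOX1, enzymes of carnitine synthesis, had -0.10 and 0.18.

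Markers of cortical cell types were set beside the members. The 12 proximal tubule markers had a median log2 fold change of -0.00 in CF against non-CF, 6 higher and 6 lower. Between the labels they were not level: the median was 0.13 in CF against WT (11 higher, 1 lower), 0.25 in HET against WT (11 higher, 1 lower) and -0.12 in CF against HET (4 higher, 8 lower), while the median of all genes was -0.0016, -0.0045 and 0.0053 in these comparisons. AQP1, the water channel of proximal tubule and thin limb, was the only gene of any list with an adjusted p under 0.05 in any comparison by edgeR. It had 266 ± 76.3 CPM in CF and 140 ± 35.7 CPM in WT libraries, a log2 fold change of 0.93 (SE 0.19, edgeR adjusted p = 0.029) with 11 of 11 CF libraries above the WT median. CUBN and SLC34A1 had 0.24 and 0.17 in CF against non-CF. Of the lower markers, chosen after their values were seen, SLC3A1 and SLC5A1 had -0.23 and -0.19 in CF against non-CF and -0.49 and -0.44 in CF against HET (edgeR adjusted p = 0.39 and 0.45 in the latter). The 5 loop and distal tubule markers had a median of -0.28, 1 higher and 4 lower. Their summed level was 456 to 688 TPM in CF, 502 to 1181 TPM in HET and 657 to 1035 TPM in WT libraries. Their median was -0.33 in CF against WT, -0.24 in CF against HET and 0.04 in HET against WT. CALB1, SLC12A3 and SLC12A1 had log2 fold changes of -1.40, -0.64 and -0.28 in CF against non-CF (edgeR adjusted p = 0.064, 0.084 and 0.097, DESeq2 adjusted p = 0.010, 0.014 and 0.030). UMOD, the 1 higher marker, also chosen after its value was seen, had 0.28 in CF against non-CF and 0.52 in CF against WT (edgeR adjusted p = 0.54 and 0.29). The part of cell makeup in the members' values was not tested.

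Of the other marker lists, 5 had medians from 0.01 to 0.07 in CF against non-CF and the immune list -0.22. The medians were 0.04 for 5 podocyte markers (SYNPO and PODXL with 0.49 and 0.14), 0.07 for 5 nephron progenitor markers, 0.02 for 5 collecting duct markers, 0.01 for 3 endothelial markers and 0.07 for 3 erythroid markers. The erythroid median was 0.63 in HET against WT (3 higher, 0 lower), 0.40 in CF against WT (2 higher, 1 lower) and -0.21 in CF against HET (0 higher, 3 lower). Of the progenitor markers, MEOX1, SIX2 and CITED1 had 0.15, 0.16 and 0.07. Of the collecting duct markers, ATP6V1B1, SCNN1B and AQP3 had 0.38, 0.19 and -0.20, and of the endothelial markers, KDR, CDH5 and PECAM1 had -0.26, 0.03 and 0.01. HBB and ALAS2, markers of red cell precursors, had 0.15 and 0.07. Of 3 immune markers 2 passed the filter, PTPRC with -0.32 and CD68 with -0.11, a median of -0.22. No gene of these lists had an adjusted p under 0.05 in edgeR, and ATP6V1B1 had 0.035 in DESeq2.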

How the data were processed

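Total RNA of newborn pig kidney cortex was depleted of ribosomal RNA and made into stranded libraries. The authors pseudoaligned the reads with kallisto to pig transcripts (Sscrofa11.1, per the labels) and deposited estimated counts and TPM for 77689 transcripts, without pooling of pigs. Whether strand was used is not given in the sources used here. Both were summed per gene symbol here and the estimated counts rounded.

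Genes passing filterByExpr (20921) were tested with edgeR 4.0.16 (TMM, quasi-likelihood, Benjamini-Hochberg, limit 0.05) under R 4.3.3. CF was set against non-CF, and the 3 labels were compared in a second fit. CPM used TMM scaling, and log2 CPM a prior count of 2. Single members were also compared by permutation of log2 CPM. On simulated data (20801 genes, 200 changed) CF against non-CF recovered 91% of changed genes, with 5.21% false calls. P-values cover the spread between pigs. DESeq2 1.42.0, limma 3.58.1 and an exact Mann-Whitney U test (scipy 1.17.1) were alternatives.

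The members and lists were chosen with earlier results of these data known. Genes named beyond the members were, within every list, those passing the limit in any comparison and the 3 smallest p for CF against non-CF, and the 2 most correlated with each member. Levels of a few other list genes (ABCC2, ABCC4, SLC13A3, HNF4A) were added after their values had been seen. Some genes that this rule names are not reported here.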

Additional observations from a re-analysis of the deposited data

Results flagged for a closer look

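SLC22A2 in HET13 stood apart from the other 5 HET libraries, at 42.1 TPM. Its distance to the next HET library was 0.694 of the whole range of log2 CPM in that label, past the 0.625 limit of Dixon's test for 6 values. It was the 1 flag among 16 sets of 6 looked at (8 members in HET and WT), and chance flags about 1 in 20. Without HET13, the log2 fold change of SLC22A2 was -0.03 in CF against non-CF (0.03 with it) and -0.10 in CF against HET (0.04 with it), and 0.13 in HET against WT (-0.01 with it).

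The difference of SLCO4C1 between CF and non-CF libraries was -0.681 on the log2 scale in set II minus set I, by the interaction test of edgeR at an unadjusted p of 0.00099 and an adjusted p of 0.17. It was 1 of 8 members tested for such a difference. What sets the libraries of pigs 7 to 11 and 19 to 23 apart was not tested.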

How the results depend on the processing

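No member had an adjusted p under 0.05 in any of the 4 comparisons under any alternative: DESeq2, limma-voom, median-of-ratios or upper-quartile normalization, no filter, at least 1 CPM in 6 libraries, the number set as a term, each set alone, EIF1AY as a covariate (for the pairs of labels chosen after seeing the data), or each library left out (for CF against non-CF also the Mann-Whitney U test and limma on log2 TPM). Of 1072 such values for single members, 998 kept their direction and 74 changed it. No paired analysis was possible because litter, by which the paper pairs CF and WT pigs in its metabolite comparisons, is not in the labels. The SE of every member was largest in HET against WT, with 6 libraries each.

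The directions that changed were these log2 fold changes. In CF against non-CF, SLC22A12 was -0.11 in set I alone. SLC22A2 was -0.034 in set I alone and -0.042 by the ratio of medians of the Mann-Whitney scaling. SLCO4C1 was 0.032 with limma-voom, 0.030 with the number set as a term, 0.33 in set I alone, 0.0020 with limma on log2 TPM and 0.14 by the ratio of medians. In CF against WT, SLC22A7 was -0.078 with limma-voom and -0.40 in set II alone, SLC22A12 was 0.043 in set II alone, and SLCO4C1 was -0.19 in set II alone. SLC22A2 was -0.0047 with upper-quartile normalization, -0.031 with the number set as a term, -0.036 in set I alone and -0.019 in set II alone. In CF against HET, SLC22A6 was -0.15 with limma-voom, SLC22A2 was -0.032 in set I alone and SLCO4C1 was 0.27 in set I alone. In HET against WT, SLC22A4 was -0.34 in set I alone, and SLC22A5 was -0.019 with upper-quartile normalization, -0.051 with the number set as a term, -0.066 in set I alone and -0.051 in set II alone. The difference between the sets for SLC22A4 was 0.024 with upper-quartile normalization, against -0.01. The cause was not tested in any of these.

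Leaving out 1 library at a time changed the direction of 10 values. It kept the direction but moved SLC22A6 to between -0.66 and -0.17 in CF against non-CF (CF against WT reached -0.40 without WT23), and SLC22A7 to between 0.25 and 0.55 in CF against non-CF. In HET against WT, also with the direction kept, SLC22A12 ran from -0.35 to -0.13 and SLC22A4 from 0.00059 to 0.33. The ranges that follow are those of the values that changed direction. The ranges in CF against non-CF were -0.052 to 0.082 for SLC22A12, -0.034 to 0.093 for SLC22A2 and -0.060 to 0.058 for SLCO4C1. In CF against WT they were -0.12 to 0.18 for SLC22A7, -0.21 to 0.011 for SLC22A12 and -0.078 to 0.14 for SLC22A2. In CF against HET they were -0.21 to 0.31 for SLC22A6 and -0.10 to 0.12 for SLC22A2, and in HET against WT -0.11 to 0.13 for SLC22A2 and -0.096 to 0.090 for SLC22A5.

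Among the listed other genes, 0 were called in CF against non-CF, against 6 with DESeq2 (AQP1, ATP6V1B1, CALB1, SLC12A1, SLC12A3 and SLC16A9), which called 2.46% of all genes, and 1 with the number set as a term (AQP1), which called 0.707%. Of 28 pairs of members, 5 were correlated over all libraries, 1 within set I and 0 within set II, which hold fewer libraries.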
